A study of Oryza sativa with 4 samples.

Results

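Among the small RNAs that the deposited lists call miRNAs of Pokkali rice seedlings, 122 predicted sequences carried no miRBase name, matched the genome at 2 to 9 places and had no miRNA* sequence on any entry. They were chosen by these 3 criteria, taken from the lists themselves, out of 783 sequences in all and 730 without a miRBase name. Each sequence and each place was counted a single time, which gave 184 hairpin loci of 939 in all and 846 predicted. The other predicted sequences were 499 with a single genome match and no miRNA*, 99 with a miRNA*, and 10 with at least 10 matches and no miRNA*. Small RNA had been sequenced from treated root (TR), control root (CR), treated shoot (TS) and control shoot (CS) of the salt-tolerant cultivar Pokkali. The seedlings were 9 days old, and the treated ones had been given 1.5% NaCl for 9 h. The labels name no mutation or transgene, and shoot stands for the aerial and root for the submerged part of the seedling. There was 1 library for each condition, so there is no replicate check, each ratio compares 2 libraries and not the conditions, and all intervals cover counting error only.

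A plant miRNA is cut by a Dicer-like enzyme, chiefly DCL1, from one arm of a folded precursor hairpin. It leaves the hairpin as a duplex with a sequence from the opposite arm, the miRNA*, which is usually degraded after the miRNA has been loaded into an ARGONAUTE protein. Reads of the miRNA* are therefore used as evidence of precise cutting, and hairpins without them rest on the mature reads and the predicted fold. In Arabidopsis, AGO1 prefers small RNAs that begin with U, whereas AGO2 and AGO4 prefer A and AGO5 prefers C. A small RNA with several exact genome matches cannot be assigned to any one of them from its sequence, so the read count given here belongs to the sequence and not to a locus.

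The members are called LC1 to LC122 here, in the order of their highest abundance in any library. LC1 is the sequence that the study named osa-miR12476, and the others have no name in the lists. LC32, listed in CR with 6 reads, is the start of the longer osa-miR12482 of the study except for its last base. Whether LC1 or any other member is a piece of ribosomal or transfer RNA was not tested here. The 10 most abundant members are shown first because they reached the highest RPM in a library, written as DNA from the 5′ end with bases 2 to 8, the seed of a miRNA, in capitals:

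LC1: aTTAATAGggacagtcgggggc
LC2: gTGGTCGTgccggagtggtt
LC3: tACCGAGGcgcgtcaattgctg
LC4: tTAATAGGgacagtcgggggc
LC5: tTGAGTGCagcgttgatgaac
LC6: gTATGAGCcccgtggactagcc
LC7: aTCGCTGTgttccttgacgcc
LC8: cATATAATcaaggaatggtata
LC9: tCGTAGTTgccggaactatg
LC10: tTTTCCGCgtctaactttgatc

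LC1 and LC4 were the same stretch of chromosome 11 with 1 base more or less at the 5′ end. LC3 and LC5 overlapped sequences of other classes, which are shown further on. The remaining 3 members that were found in 3 libraries are shown because they could be compared both between tissues and between treatments:

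LC26: tTTTTATTtgaactgtttgacc
LC44: tAAATGTAtgacgctgttgact
LC54: tTCGGACAggatgatacctcag

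All sequences here were 20 to 22 nt long, the range of the lists. Of the members, 61 (50%) were 22 nt, 44 (36.1%) were 21 nt and 17 (13.9%) were 20 nt long, against 60.0%, 28.6% and 11.3% of the other predicted sequences. The members matched the genome at 414 places in total, of which 184 (44.4%) were listed with a hairpin. For 25 members every match was listed, 82 members had 1 listed locus and 40 had more. Most had few matches, with 64 members at 2 matches, 18 at 3, 13 at 4, 7 at 5, 5 at 6, 8 at 7, 4 at 8 and 3 at 9.

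The 4 lists held 33 members in TR, 13 in CR, 40 in TS and 60 in CS. This was 16.7%, 14.3%, 14.7% and 19.0% of the predicted sequences of each list. The reads used for prediction were 12126876 in TR, 6887961 in CR, 9765004 in TS and 13116913 in CS, and 1 read was worth 0.0825, 0.145, 0.102 and 0.0762 RPM (reads scaled to 1000000 of the reads used) in the same order. The members summed to 342 reads in TR, 137 in CR, 422 in TS and 512 in CS. On the RPM scale the sums were 28.2 (95% interval 25.3 to 31.4) in TR, 19.9 (16.7 to 23.5) in CR, 43.2 (39.2 to 47.5) in TS and 39.0 (35.7 to 42.6) in CS. Members took 0.855% of all listed reads in TR, 0.412% in CR, 1.37% in TS and 0.842% in CS. On this scale both shoot lists held more member RPM than both root lists.

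**Figure D1:**
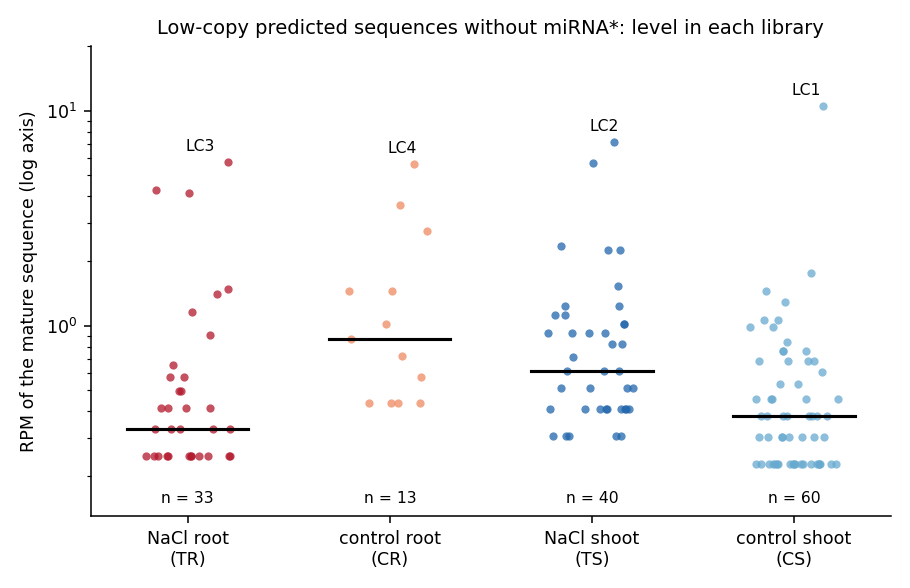
RPM of each member (points, log axis) in treated root, control root, treated shoot and control shoot, with the median as a black line and the number of listed members below. Most members lie under 1 RPM, and the highest point of each library is LC3 at 70 reads in TR, LC4 at 39 reads in CR, LC2 at 70 reads in TS and LC1 at 138 reads in CS.

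The median member had 4 reads in TR, 6 in CR, 6 in TS and 5 in CS. Across the libraries, 30 members reached 10 reads somewhere and 36 never had more than 3. LC1 had 50 reads in TR, 56 in TS and 138 in CS and was not listed in CR. By Northern blot, a different measure, the study detected osa-miR12476 in root but not in shoot, with an increase after NaCl. The lists, in contrast, held LC1 in both shoot libraries. In root, the CR list gave LC4 at the same place with 5.66 RPM, against 4.12 RPM of LC1 in TR. The lists thus did not show an increase at this place in root. LC2 had 70 reads in TS and was in no other list, although it matched the genome at 9 places. LC3 had 70 reads in TR alone, LC4 had 39 reads in CR alone, and LC5 had 52 reads in TR and 14 in CS. The highest member of a library held 20.5% of the member reads in TR, 28.5% in CR, 16.6% in TS and 27.0% in CS, so the sums rest partly on LC3, LC4, LC2 and LC1.

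Every entry of the 4 lists, members or not, had more reads than genome matches. The lowest count was 3 reads for sequences with 2 matches, 4 for 3 matches, 5 for 4 matches and so on up to 9 for 8 matches, while single-copy sequences began at 2 reads. This floor was seen after the values had been examined. Of the 146 pairs of a member and a library that listed it, 60 (41.1%) stood exactly at matches plus 1 read, against 70.3% for single-copy sequences without miRNA*. Because the floor moves with the number of matches, the read levels of members and of single-copy sequences were not compared.

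**Figure D2:**
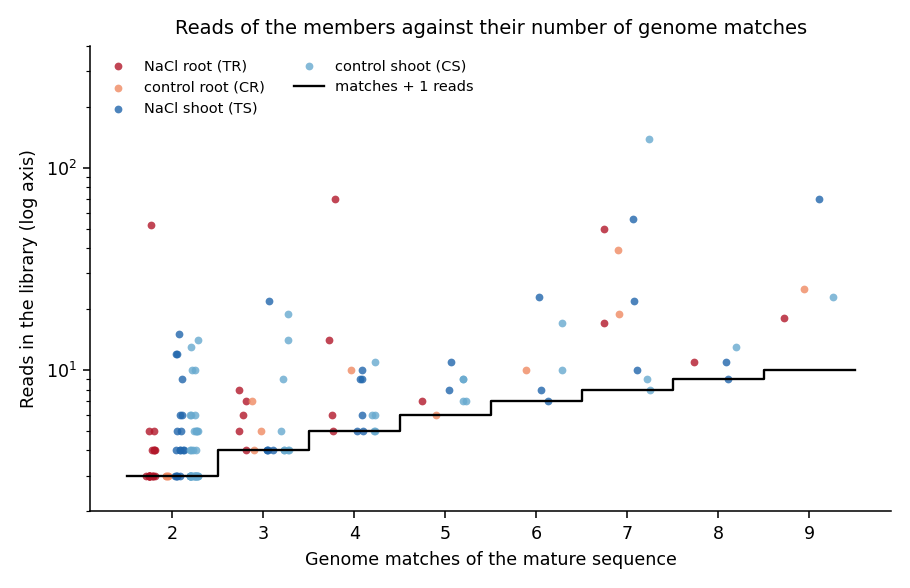
Reads of each member in each library (points, log axis) against the number of genome matches of its sequence, with the black steps at matches plus 1 read. No point lies below the steps, and 60 of the 146 points lie on them.

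On either side of the limits of the choice, the single-copy sequence with the highest abundance, tCTCGGATcaggcttcattcc at chr3:25295065-25295085, had 127 reads in TR, 38 in CR, 167 in TS and 590 in CS. At 10 matches, tATTATAAgacgttttgact at chr6:21165346-21165365 had 39 reads in TR, 15 in CR, 78 in TS and 91 in CS. The study named this sequence osa-miR12481 and detected it by Northern blot. Among predicted sequences with 10 matches and no miRNA*, all 4 began with U and their 11 loci had a median hairpin G+C of 28.7%. The 3 members with 9 matches, LC2, LC6 and LC11, all began with G and their 17 loci had a median hairpin G+C of 58.7%. Of these 17 loci, 9 were of LC6 and 7 of LC11, with only 3 distinct hairpins for each sequence. Of the 11 loci at 10 matches, 8 belonged to a single sequence. Both medians therefore rest on repeated loci of few sequences.

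Of the members, 77 (63.1%) began with U, written T in the lists, 19 with A, 15 with C and 11 with G. Of the other predicted sequences 56.3% began with U, and of the miRBase sequences in the lists 81.1%. Among members the share with U was 70.5% at 22 nt, 63.6% at 21 nt and 35.3% at 20 nt, and in the other predicted sequences it was 65.2%, 45.4% and 36.2%. The members that began with U came from longer, U- and A-rich hairpins, with a median G+C of 31.9% and a median length of 142.5 nt, whereas the members that began with A, C or G had medians of 48.5% and 89 nt. Of the 112 loci of members that began with U, 28 were of a single group of near copies with long hairpins poor in G and C, described further on. This contrast was not computed for the other predicted sequences. The first base differed between the lists. U began 13 of 33 members (39.4%) in TR, 4 of 13 (30.8%) in CR, 26 of 40 (65.0%) in TS and 49 of 60 (81.7%) in CS. A was the most frequent first base in CR, at 6 of 13 members, and G began 8 of 33 members in TR but 2 of 60 in CS. The other predicted sequences followed nearly the same order, with U first in 39.4% in TR, 47.4% in CR, 54.7% in TS and 75.8% in CS. The higher share in shoot lists is therefore not particular to the members.

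**Figure D3:**
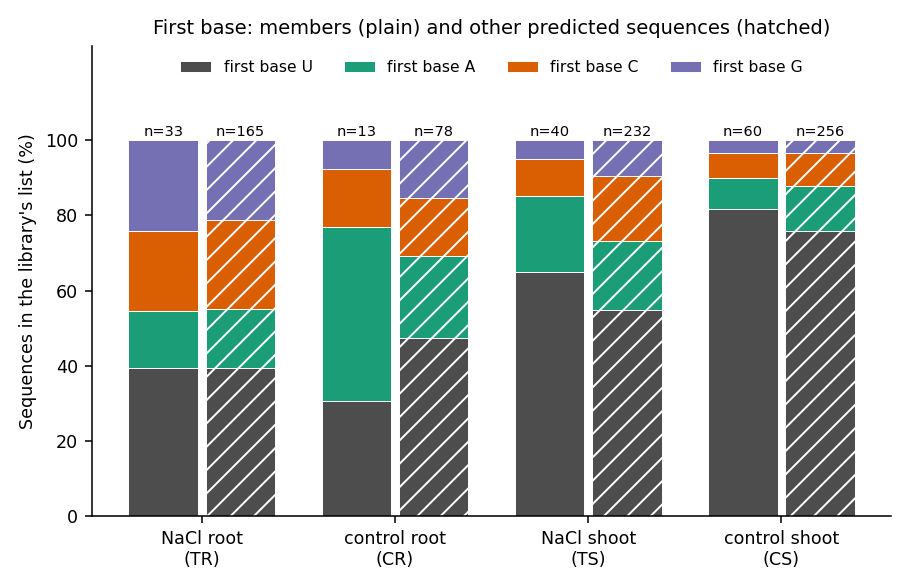
Share of sequences (%) by first base in each library's list, members as plain bars and other predicted sequences as hatched bars, with the number of sequences above each bar. The dark U segment of the members is 39.4% in TR, 30.8% in CR, 65.0% in TS and 81.7% in CS.

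The member hairpins had a median length of 114.5 nt (60 to 218) and a median G+C of 38.9% (17.3% to 79.8%), against a median G+C of 38.7% for the other predicted loci. The median adjusted folding energy, which is the minimum free energy per 100 nt of hairpin, was −39.7 kcal/mol. It was −39.9 for the other predicted loci together, −45.9 for those with a miRNA* and −51.7 for the miRBase hairpins. The mature sequence lay on the 5′ arm at 109 of 184 member loci (59.2%), against 58.8% of the other predicted loci. The deposited p-value of the fold was at most 0.01 at 160 member loci (87.0%) and at 82.8% of the others. In G+C, energy and arm the members and all other predicted hairpins thus had nearly equal values.

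Between libraries the hairpins differed in base composition. Median hairpin G+C of the members was 46.8% in TR, 54.5% in CR, 35.7% in TS and 35.4% in CS. The root values rest partly on LC6, whose near-identical hairpins gave 9 loci to TR and 8 to CR. Without LC6 the medians were 44.9% in TR and 45.1% in CR. Taking each sequence a single time, they were 44.9% in TR, 46.7% in CR, 36.8% in TS and 35.6% in CS. For the other predicted sequences, also each a single time, they were 40.1% in TR, 41.5% in CR, 39.4% in TS and 35.1% in CS. The extremes of G+C were LC58 at 17.3%, listed in CS with 6 reads, and LC62 at 79.8%, listed in CR with 3 reads.

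The deposited energies were checked by folding each hairpin sequence again with RNAfold. The deposited energy was within 1.25-fold of the recomputed one for 214 of 219 member entries, with a median ratio of 1.02. The other 5 entries belonged to LC1, LC14, LC17, LC68 and LC82. The hairpin of LC1 was listed with −57.42 kcal/mol in TR but with −34.90 kcal/mol in TS and CS, and with −34.90 kcal/mol in CR for LC4, although its sequence was identical in all 4 lists, and RNAfold gave −30.5 kcal/mol. LC14 was listed with −31.7 kcal/mol in TR and −64.17 kcal/mol in CR for the same hairpin, against −28.7 kcal/mol by RNAfold. LC82, which had the lowest adjusted energy of all members at −107.7 kcal/mol per 100 nt, gave −32.4 by RNAfold. By RNAfold the lowest adjusted energy was −78.0 for a hairpin of LC16, the highest was −22.5 for LC65, and the median over the 184 loci was −38.8 kcal/mol per 100 nt.

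**Figure D4:**
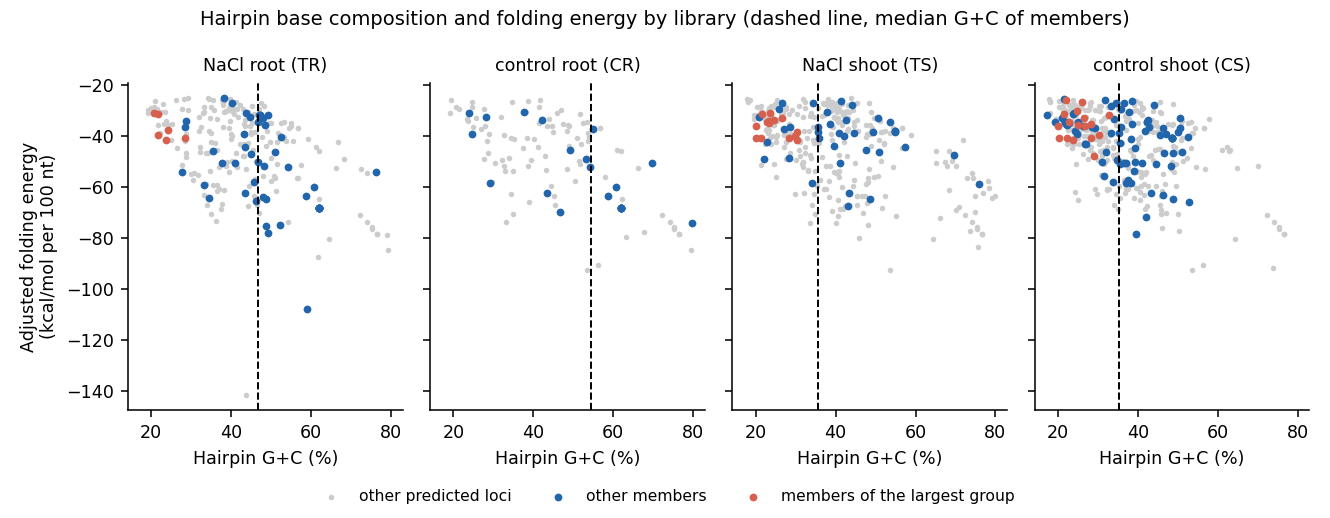
Hairpin G+C (%) against the deposited adjusted folding energy (kcal/mol per 100 nt) of every predicted locus in the 4 lists, with other predicted loci in grey, members in blue and members of the largest group of like sequences in red. The dashed median of the members lies at 46.8% in TR, 54.5% in CR, 35.7% in TS and 35.4% in CS, and the lone low blue point in TR is LC82.

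Many members were near copies of each other. When sequences were linked at an edit distance (bases changed, added or removed) of at most 4, a rule set after the sequences had been seen, 53 of the 122 members fell into 15 groups. The largest group had 17 sequences at 28 loci on 11 chromosomes. Some of its sequences are printed here because their shared end, a run of TTTGAC or TTTGAT near the 3′ end, is plain to the eye:

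LC10: tTTTCCGCgtctaactttgatc
LC29: tTTCCGTGttcaactttgatc
LC33: tTTCCGCGtctaactttgatc
LC34: tTTTTATTtgtattgtttgacc
LC41: tTTCCGTAtccaacgtttgact
LC46: tTCATATTcaacgtttgaccgt
LC60: tTTTTGTTtatactgtttgacc
LC75: tTTTTTATcaacgtttgact
LC81: tTTTCCGCgtccaactttgact

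All 17 began with U and 14 held TTTGAC. The hairpins were long, at 171 to 211 nt with a median of 207.5 nt, and poor in G and C, with a median of 24.3% (20.1% to 32.9%). The mature sequence lay on the 5′ arm at 27 of the 28 loci. The TR list held 4 of these sequences with 15 reads, the CR list none, the TS list 8 with 63 reads and the CS list 12 with 89 reads. The most abundant was LC10, listed with 4 reads in TR, 22 in TS and 14 in CS. Its listed locus, chr5:28808830-28808851 on the plus strand, is shown as an example of the long hairpins, with the mature sequence in capitals:

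LC10 hairpin: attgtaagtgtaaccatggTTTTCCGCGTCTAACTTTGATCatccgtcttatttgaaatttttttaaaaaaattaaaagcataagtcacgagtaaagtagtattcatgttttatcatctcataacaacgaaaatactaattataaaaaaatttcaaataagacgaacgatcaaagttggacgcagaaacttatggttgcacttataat

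The opposite arm, near the 3′ end of this hairpin, reads nearly as the reverse complement of LC10. Over all members the letters TTTGAC, searched in the sense direction of the mature sequence, were in 21 (17.2%), against 10.7% of the other predicted sequences and none of the 53 miRBase sequences. The letters were chosen after the largest group had been seen, and 14 of the 21 were in that group. The higher share in members is therefore not independent of the group. The 10 predicted sequences with at least 10 matches and no miRNA* held it in 3 cases (30%). Their reverse complement GTCAAA was in 1 member. A sequence that ended in GACT or GACC was found in 24 members (19.7%), 12 of them in the largest group. It was found in 9.87% of the other predicted sequences, and in 4 of the same 10 sequences with many matches (40%). Without the largest group, 105 members remained, of which 57.1% began with U, and the median hairpin G+C was 42.3%.

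The next 2 groups resembled opposite strands of one sequence. The second group had 5 sequences at 9 loci, all on the 3′ arm, and the third had 4 sequences at 8 loci, all on the 5′ arm and all listed in CS alone. A member of each is shown so that the first can be read against the reverse complement of the other:

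LC40: tTCAGATTcgtagtactagaat
LC79: tTCTAGTAcaatgaatttggac

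The reverse complements of the second group differed from the sequences of the third by 3 to 7 bases. LC40 had 9 reads in CS with 4 of its 7 genome matches listed, and LC79 had 5 reads in CS with all 4 matches listed. The second group had 3 reads in TR, 3 in CR and 19 in CS, and the third had 16 reads in CS. No sequence of either group was listed in TS. Exact seeds were seldom shared: the members had 112 distinct seeds, and 9 of these were shared by 19 members in all.

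Members with many listed loci were of different kinds. LC6 was listed at 9 loci on chromosomes 3, 4, 8, 10 and 12, which covered all of its matches, yet these loci held only 3 distinct hairpins of 63 or 79 nt. LC11 was listed at 7 loci with 3 distinct hairpins of 66 nt, and had 23 reads in CS only. LC16 was listed at 5 loci of chromosomes 4, 10 and 11 with 5 distinct hairpins of 132 to 187 nt, and had 17 reads in TR only. All loci of LC16 were among the strongly folding ones, at −58.1 to −78.1 kcal/mol per 100 nt. In total the 184 loci held 164 distinct hairpin sequences.

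The loci were spread over all 12 chromosomes, with 77 on the plus and 107 on the minus strand. There were 4.93 loci per 10 Mb of the genome, from 3.0 on chromosome 5 (9 loci) to 7.33 on chromosome 10 (17 loci) and 7.26 on chromosome 12 (20 loci). The other predicted loci had 17.7 per 10 Mb, and their density on chromosome 12 was lower than this, at 12.0. Whether a locus lies in a gene was not analysed here. Coordinates are those of the lists, on the rice assembly IRGSP-1.0. At all 178 loci where it could be checked, the position of the mature sequence was shifted by 1 base against the position of its own hairpin, so each coordinate may be off by 1 base.

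In no list did 2 hairpins overlap on a strand, over 289 loci in TR, 172 in CR, 386 in TS and 445 in CS. Each list thus gave at most 1 mature sequence for a place, and the same place could carry a different sequence in another list. This was the case for 19 members, in 14 pairs of overlapping sequences of which at least 1 was a member. The members concerned that were most abundant, and sequences of other classes that overlapped them or shared their letters, are shown because a shift of 1 to 3 bases decides whether a sequence counts as listed in a library:

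LC15: aCTAGGTTtgtttattttggga
LC20: cTAGGTTTgtttattttgggac
LC28: tAGGTTTGtttattttgggac
sequence with miRNA*: tAGGTTTGtttattttgggacg
osa-miR12475: aCCGAGGCgcgtcaattgctg
listed miR397: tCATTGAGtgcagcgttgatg
osa-miR12477: tTGAGTGCagcgttgatgaacc

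At chr11:23702937-23702958 the lists of TR, TS and CS gave LC1, with 50, 56 and 138 reads, and the list of CR gave LC4, the same sequence without its first A, with 39 reads. The place was therefore listed in all 4 libraries, although neither sequence was. Its hairpin is shown with LC1 in capitals:

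LC1 hairpin: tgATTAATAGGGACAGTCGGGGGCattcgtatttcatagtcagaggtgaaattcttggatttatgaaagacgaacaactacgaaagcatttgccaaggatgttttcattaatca

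At chr3:33572264-33572286 the TR list gave LC20 with 14 reads, the CR list LC15 with 7, the TS list LC28 with 9 and the CS list LC15 with 19. These are the same stretch moved by 1 or 2 bases, and here again every library listed the place. A further sequence, which has a miRNA*, is LC28 with 1 base more at its 3′ end and shares 20 bases with LC15 and 21 with LC20. It matched the genome at 3 places and had 76 reads in TR, 58 in CR, 81 in TS and 95 in CS. At chr6:2678294-2678315 the TR list gave LC3 with 70 reads. The other lists gave osa-miR12475 there, which lacks the first base of LC3 and has a miRNA*, with 16 reads in CR, 269 in TS and 95 in CS. LC5, at chr6:28489798-28489818, lay in the hairpin of a miR397 sequence and began 3 bases downstream of it. miR397 is a conserved family whose known targets are laccases. LC5 was listed in TR with 52 reads and in CS with 14, whereas the miR397 sequence was listed in CR with 10:

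LC5 hairpin: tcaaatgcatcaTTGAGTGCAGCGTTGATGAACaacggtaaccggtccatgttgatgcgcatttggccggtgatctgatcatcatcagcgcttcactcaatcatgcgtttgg

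LC5 was also osa-miR12477 without its last base. osa-miR12477 was listed at a locus on chromosome 2, chr2:3280864-3280885, with 295 reads in TR, 63 in CR, 14 in TS and 185 in CS. LC5 reads may therefore come from either place, and the lists do not separate them.

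Other members overlapped or resembled miRBase families. LC95, listed in CS with 4 reads, overlapped a miR2055 sequence listed in TS with 4 reads. LC19 (4 reads in TR and 12 in TS) and LC92 (4 reads in CS) were the same sequence with 1 base more or less at the 3′ end. Their listed place was chr1:6556102-6556123 on the minus strand. The letters of both were also found in a listed miR159 hairpin elsewhere, at chr1:6693100-6693306 on the plus strand. The lists do not separate reads of these places. miR159 is a family that targets GAMYB transcription factors. LC19 and LC92 began at base 124 of that hairpin, ahead of the miR159 sequence itself at base 169. LC47, listed in CR with 4 reads, shared a run of 18 bases with miR159. LC69, listed in TS with 4 reads, shared 20 of its 21 bases with a listed miR169 sequence that had 11 reads in TS and 4 in CS. In all, 4 members shared at least 16 bases in a row with a miRBase sequence of the lists, and 41 shared such a run with any other listed sequence.

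By library, 103 members were listed in 1 library, 14 in 2, 5 in 3 and none in 4. Those listed in 1 library were 21 in TR, 8 in CR, 29 in TS and 45 in CS. Of the members, 32 were listed in root alone, 79 in shoot alone and 11 in both. Over all predicted sequences the lists held 198 in TR, 91 in CR, 272 in TS and 316 in CS. The split by tissue was not counted for the other predicted sequences, so these counts cannot show a preference of the members for a tissue. The share of members listed in more than 1 library was 15.6%, against 14.5% for the other predicted sequences. Among the latter, single-copy ones without miRNA* reached 11.0% and those with a miRNA* 29.3%. TR and CR shared 3 members, which was 9.09% of the members in TR and 23.1% of those in CR. For the other predicted sequences the shares were 11.5% in TR and 24.4% in CR. TS and CS shared 10, which was 25% of the members in TS and 16.7% of those in CS, and for the other predicted sequences the shares were 23.3% in TS and 21.1% in CS. CR and CS shared 15.4% of the members in CR and 3.33% of those in CS. For the other predicted sequences these shares were 32.1% in CR and 9.77% in CS. TR and TS shared 18.2% of the members in TR and 15% of those in TS. For the other predicted sequences they were 12.7% in TR and 9.05% in TS.

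An unlisted sequence may still have been sequenced, so it was given no count of 0 and no fold. The floor shows how far a missing entry can be read. If the 30 members in TR but not CR had the same RPM in CR, 24 of them (80%) would have fallen under the CR floor, against 129 of 146 (88.4%) for the other predicted sequences. The 6 that would not were LC1, LC3, LC5, LC16, LC20 and LC42, and at the listed places of LC1, LC3, LC5 and LC20 the CR list gave another overlapping sequence. For LC16 the expected count in CR was 9.66 reads against a floor of 8, and for LC42 it was 4.54 reads against a floor of 4. Of the 50 members in CS but not TS, 36 (72%) would have fallen under the TS floor at equal RPM, against 150 of 202 (74.3%) for the other predicted sequences, and 14 would not, led by LC11 with 17.1 expected reads against a floor of 10. In the opposite directions an equal RPM gives more reads than were listed, because CS was deeper than TS and TR deeper than CR, so that no entry could fall under the floor. Of the members in TS but not CS or in CR but not TR, LC2 would have had 94.0 reads in CS, LC9 29.6 reads in CS and LC7 33.5 reads in TR. Between tissues, 45 of the 58 members in CS but not CR (77.6%) would have fallen under the CR floor at equal RPM. For the other predicted sequences this was 84.8%. Of the 27 members in TR but not TS, 15 (55.6%) would have fallen under the TS floor, against 75% of the others. For the 11 members in CR but not CS and the 34 in TS but not TR the number was 0.

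For members listed in both libraries of a comparison the RPM ratio was computed with an exact conditional 95% interval. A call needed an interval without 1 and a ratio of 2 or more, or of 0.5 or less. The sums over members, which count an unlisted sequence as adding nothing, gave a ratio of 1.42 (1.16 to 1.74) for TR over CR and of 1.11 (0.971 to 1.26) for TS over CS. Between tissues they gave 0.510 (0.419 to 0.616) for CR over CS and 0.653 (0.564 to 0.754) for TR over TS. These sums hold different sequences in each library, and the direction of TS over CS and of TR over TS turned with the scale. The TR sum includes LC3 with 70 reads and LC5 with 52. At their listed places the CR list gave osa-miR12475 with 16 reads and a miR397 sequence with 10, which are not members and were left out. The ratio for TR over CR thus does not compare reads of the same places, and it was not computed without LC3 and LC5. In a comparison of scales added after the data had been seen, with raw reads, listed reads and TMM factors as the denominator, TS over CS was 0.916, 1.62 and 0.773, and TR over TS was 0.793, 0.626 and 1.09. In the same order of scales, TR over CR was 2.36, 2.08 and 1.90, and CR over CS was 0.307, 0.489 and 0.601.

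In root, 3 members could be compared between TR and CR. LC6 had 18 reads in TR and 25 in CR, which is 1.48 and 3.63 RPM, and was called lower in TR with a ratio of 0.409 (0.210 to 0.780). LC14 had 6 reads in TR and 10 in CR, with a ratio of 0.341 (0.102 to 1.03), and LC63 had 3 reads in each, with a ratio of 0.568 (0.0761 to 4.24). The intervals of LC14 and LC63 include 1, so no difference could be shown at this depth. Over all sequences listed in both root libraries, 10.9% were called higher and 13% lower in TR of 46 compared, and of the 19 other predicted ones 15.8% each way. The call of LC6 depended on the scale: the ratio was 0.681 with all raw reads as the denominator, 0.599 with the listed reads and 0.549 with TMM factors, and none of these was a call.

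In shoot, 10 members were compared and 2 were called higher in TS, where the background over 96 sequences was 22.9% higher and 7.29% lower. Of the 54 other predicted sequences alone, 9.26% were called higher and 5.56% lower. LC8 had 23 reads in TS and 10 in CS, with a ratio of 3.09 (1.41 to 7.27). LC10 had 22 reads in TS and 14 in CS, with a ratio of 2.11 (1.03 to 4.46). LC1 had 56 reads in TS and 138 in CS, with a ratio of 0.545 (0.392 to 0.749), which excluded 1 but did not reach the fold limit. LC26 had 4 reads in TS and 13 in CS, with a ratio of 0.413 (0.0982 to 1.34). The other 6 ratios lay between 1.10 and 1.61 with intervals that included 1. The split of calls turned with the scale. With RPM 2 members were called higher and 0 lower. On the scale of raw reads LC8 alone was called higher and LC1 (0.451) lower. TMM factors left 0 called higher, since LC8 (2.16) and LC10 (1.47) lost their calls, and 2 called lower, LC1 (0.381) and LC26 (0.289). With the sum of listed reads as the denominator LC8 (4.52) and LC10 (3.09) stayed called higher, and LC1 had a ratio of 0.798 (0.574 to 1.10), with an interval that included 1. Over all 96 sequences shared by TS and CS the median log2 ratio was 0.43 with RPM, 0.15 with raw reads, 0.98 with listed reads and −0.09 with TMM factors.

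Between tissues, CR and CS shared 2 members and neither was called, with backgrounds of 14% higher and 22% lower over 50 sequences and of 12% and 16% over the 25 other predicted ones. LC15 had 7 reads in CR and 19 in CS, with a ratio of 0.702 (0.249 to 1.74), and LC61 had 3 reads in each, with a ratio of 1.90 (0.255 to 14.2). TR and TS shared 6 members, of which 2 were called lower in TR and none higher, with backgrounds of 31.9% lower and 17% higher over 47 sequences. Of the 21 other predicted sequences alone, 4.76% were called lower and 14.3% higher. LC10 had 4 reads in TR and 22 in TS, with a ratio of 0.146 (0.0367 to 0.431). LC19 had 4 reads in TR and 12 in TS, with a ratio of 0.268 (0.0631 to 0.886), and it was no longer called with raw reads (0.326) or TMM factors (0.447). LC1 had 50 reads in TR and 56 in TS, with a ratio of 0.719 (0.481 to 1.07). Over all 47 sequences shared by TR and TS the median log2 ratio was −0.68 with RPM, so that the members were read against a background that was itself lower in TR.

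**Figure D5:**
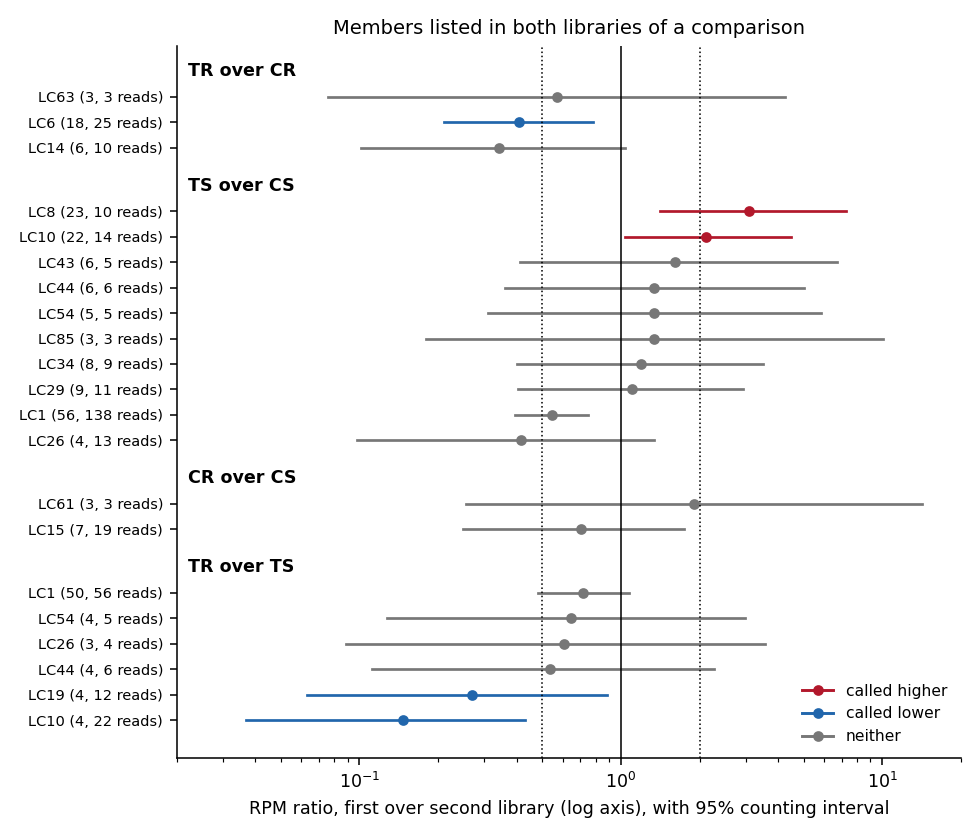
RPM ratio (first over second library, log axis) with 95% counting intervals for each member listed in both libraries of a comparison, with the reads of both libraries in brackets. LC8 and LC10 are called higher in TS over CS, LC6 is called lower in TR over CR, LC10 and LC19 are called lower in TR over TS, and the other 16 ratios are not called.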

How the data were processed

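Small RNA was analysed from 4 libraries, 1 per condition. The authors cleaned single-end Illumina reads (cutadapt, NGS QC Toolkit, UEA Small-RNA Workbench), removed other RNA classes, matched miRBase and predicted hairpins on the rice genome. The predictor's name and the versions of the 3 cleaning tools were not given in the sources used here. Each deposited list has 1 entry per locus with the read count of the mature sequence, its RPM (that deposited count on a scale of 1000000 reads used), the deposited log2 of the RPM, hairpin G+C in percent, energy and a deposited p-value of the fold. Empty lines (3 in TR, 3 in CR, 4 in TS, 5 in CS) were left out.

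The members, lists and tests were chosen with earlier results of these data known. Groups of like sequences, the TTTGAC search, the floor, the overlaps and the refolding were added after seeing the data. Where a hairpin's energy differed between lists, medians took the first of TR, CR, TS and CS. Named sequences are those in at least 3 libraries, the 10 most abundant, all called members, the 5 with most loci (and ties), the extremes of G+C and energy, the 3 largest groups, osa-miR12476 and the most abundant just outside each match limit. Others were singled out after their values were seen. Ratios were checked on simulated counts, only where at least 10 reads were expected in both libraries and without the floor. The check does not cover lower counts, which most members had. Alternatives changed the denominator (TMM by edgeR), filters, fold, match limit and counting unit. Python 3.11.15, pandas 2.3.3, numpy 2.4.6, scipy 1.17.1, matplotlib 3.10.9, ViennaRNA 2.7.2, R 4.3.3 and edgeR 4.0.16 were used.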

Additional observations from a re-analysis of the deposited data

How the results depend on the processing

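With 1 library per condition, neither the spread between plants nor the effect of a single library could be measured, and no library could be left out. No paired analysis was possible because each condition has 1 library and the labels carry no replicate numbers. Members called in TR over CR numbered 1 with RPM and 0 with raw reads, with the sum of listed reads and with TMM factors. Members called in TR over TS numbered 2 with RPM, and 1 with raw reads and with TMM factors. The number of members was 122, and 68 when at least 5 reads in a library were asked for. Members listed in more than 1 library numbered 19, against 33 when places with overlapping hairpins merged were counted in place of sequences. Without merging, 30 of the 184 loci were listed in more than 1 library, so most of this move is the change of unit. Taking each list alone, a setting added after the data had been seen, the share with U first was 39.4% in TR, 30.8% in CR and 81.7% in CS, the median hairpin G+C was 46.8% in TR, 54.5% in CR, 35.7% in TS and 35.4% in CS, and the median adjusted energy was −50.3 in TR and −59.3 in CR. By RNAfold those energies were −46.4 in TR and −54.6 in CR, and taking each sequence a single time they were −39.5 and −44.1 kcal/mol per 100 nt. The largest group of like sequences had 17 members, 16 at an edit distance of 3 and 23 at 5. The cause of these shifts was not tested. Over the ratios of single members and the size of the largest group, a value kept its label 85 times, lost a call 8 times and gained one 4 times. Many of the 85 were ratios that were never called. The read filter could not change a call, and the lower fold could not remove one. All 8 losses came with a changed denominator, and fell on LC6, LC8, LC19 and LC10 in TS over CS. Only the call of LC10 in TR over TS was kept with every denominator. The reads limit what can be seen: 41.1% of member counts stood at the floor of matches plus 1 read, and 3 reads in both TR and CR gave an interval of 0.0761 to 4.24.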
